A study of Mus musculus with 4 samples.

Results

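Bone morphogenetic protein (BMP) signalling in the urogenital sinus (UGS), the embryonic tube from which the prostate grows, was described through 10 genes: the ligands *Bmp2*, *Bmp3*, *Bmp4*, *Bmp5*, *Bmp6* and *Bmp7*, the secreted antagonists *Nog*, *Grem1* and *Fst*, and the membrane pseudoreceptor *Bambi*. They were taken by symbol from the 25819 rows of one expression matrix, and all 10 were found. RNA-Seq had been made from whole UGS of male embryos that were either wild type or homozygous for *Tbx18*Gfp, a GFP knock-in null allele of the T-box transcription factor gene *Tbx18*. There were 4 libraries, one of each genotype at E16.5 and one of each at E18.5, where E gives the embryonic day. Each library was RNA pooled from 3 embryos on a B6C3-F1 hybrid background, with wild type littermates as controls. No other allele or agent was given, and the comparison asked how expression in the UGS differs when *Tbx18* is missing.

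BMPs are secreted dimers that bind a complex of type 1 and type 2 serine/threonine kinase receptors, after which SMAD1, SMAD5 and SMAD9 are phosphorylated, join SMAD4 and regulate targets such as the *Id* genes. Secreted antagonists bind the ligands and keep them from the receptors, so the local balance of ligand and antagonist sets the signal. In the UGS, *Bmp4* and *Bmp7* are known as inhibitors of prostatic budding and branching and *Nog* as a gene needed for normal budding.

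Values are FPKM, the fragments counted for a gene scaled to its transcript length and to the depth of the library, so levels of different genes can be set side by side. Since each genotype was 1 pooled library at each stage, there was no test, no standard deviation and no p-value. All intervals are 95% intervals that cover counting error only. In whole tissue, fewer cells of a type and less RNA per cell cannot be told apart. At E16.5 the estimated depth was 64000000 mapped reads in wild type and 55700000 in the mutant, and at E18.5 it was 29000000 and 52400000. The E18.5 wild type library stood apart from the others. The median gene was 0.29 log2 units higher in mutant than in wild type at E18.5, against 0.01 at E16.5, and the E18.5 ratio rose with the GC content of the transcript across genes (Spearman 0.44, against 0.02 at E16.5). E18.5 ratios of the BMP ligands and antagonists are therefore given as deposited and also relative to the median gene or to a trend on GC content and length. For the other pathway genes some E18.5 ratios are given as deposited only, and these carry the shift of the median gene. *Tbx18* itself measured 3.47 FPKM in E16.5 wild type and 2.50 in its mutant, then 3.16 and 2.93 in the E18.5 pair, so its transcript was still counted in the mutants. Of the markers fixed for the tissue, 7 of 7 for UGS mesenchyme and 8 of 8 for UGS epithelium reached 1 FPKM in every library.

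The promoters of *Bmp4*, *Bmp5*, *Bmp6* and *Grem1*, the 4 of 10 members matched in the RefSeq promoter table used here (GRCm38.p6), are printed because *Tbx18* encodes a DNA-binding factor. Each runs 5′ to 3′ on the strand of the gene, from 250 bases before to 50 bases after the annotated start. *Bmp4* is chr14:46390620-46390919 on the minus strand, *Bmp5* is chr9:75775115-75775414 on the plus strand, *Bmp6* is chr13:38345466-38345765 on the plus strand and *Grem1* is chr2:113758599-113758898 on the minus strand.
Bmp4: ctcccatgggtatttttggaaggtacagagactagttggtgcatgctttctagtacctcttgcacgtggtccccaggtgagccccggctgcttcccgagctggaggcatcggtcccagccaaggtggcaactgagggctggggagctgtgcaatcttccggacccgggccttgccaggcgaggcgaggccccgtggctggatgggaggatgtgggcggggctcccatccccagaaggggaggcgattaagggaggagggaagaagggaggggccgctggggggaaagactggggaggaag
Bmp5: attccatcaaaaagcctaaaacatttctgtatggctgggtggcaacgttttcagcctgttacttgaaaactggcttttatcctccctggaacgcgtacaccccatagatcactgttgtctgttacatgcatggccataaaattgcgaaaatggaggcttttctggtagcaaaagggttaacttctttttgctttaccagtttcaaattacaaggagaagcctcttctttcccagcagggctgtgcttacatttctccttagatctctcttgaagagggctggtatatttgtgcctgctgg
Bmp6: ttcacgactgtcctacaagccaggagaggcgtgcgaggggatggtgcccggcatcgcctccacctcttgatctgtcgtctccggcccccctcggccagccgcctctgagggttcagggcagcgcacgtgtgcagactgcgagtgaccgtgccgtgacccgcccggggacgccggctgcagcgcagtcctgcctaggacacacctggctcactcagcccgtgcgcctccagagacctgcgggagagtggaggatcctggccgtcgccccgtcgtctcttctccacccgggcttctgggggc
Grem1: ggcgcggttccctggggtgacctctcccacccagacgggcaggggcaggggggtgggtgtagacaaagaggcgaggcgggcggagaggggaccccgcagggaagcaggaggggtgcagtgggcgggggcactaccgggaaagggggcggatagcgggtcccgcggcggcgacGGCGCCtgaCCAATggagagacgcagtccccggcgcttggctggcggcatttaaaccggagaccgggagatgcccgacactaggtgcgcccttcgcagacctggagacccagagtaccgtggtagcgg
Capitals mark matches to 4 motifs searched on both strands. The T-box core GGTGTGA was held by 3.98% of 32851 promoters of the same length. The palindrome GGCGCC was held by 11.9% of them, the TATA box (letters TATAAA) by 13.6% and the CCAAT box (letters CCAAT) by 37.4%. The *Grem1* promoter had the palindrome and, 3 bases after it, the CCAAT box, and the other 3 promoters held none of the 4 motifs. The promoters differed in base composition, with 64% GC and 12 CpG for *Bmp4*, 43.3% and 4 for *Bmp5*, 69.3% and 27 for *Bmp6*, and 70.7% and 28 for *Grem1*, against medians of 52.7% and 7 over all promoters. The data hold no binding or chromatin measurement at these sites.

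*Bmp4*, the ligand most studied as a mesenchymal brake on prostatic buds, was the highest of the 10 genes in every library. It measured 36.6 FPKM in E16.5 wild type, 38.5 in E16.5 *Tbx18*Gfp/Gfp, 27.7 in E18.5 wild type and 32.0 in E18.5 *Tbx18*Gfp/Gfp, which placed it at the 84.7 to 87.6 percentile of genes with at least 1 FPKM. The mutant was higher at both stages as deposited, but by little. The log2 ratio of mutant to wild type was 0.07 (0.01 to 0.14) at E16.5, or -0.03 with library sums made equal, and 0.21 (0.12 to 0.30) at E18.5, where it became -0.08 relative to the median gene and -0.31 against the GC and length trend. *Bmp4* lies on chromosome 14 from 47003195 to 47010274, in the coordinates of the deposited file, whose genome build is not given in the sources used here. These coordinates differ from GRCm38, so those of the genes and those of the promoters above are not on the same scale. Its row overlaps that of *Gm15217*, listed at 0.368 to 0.726 FPKM, and it was the only member to overlap another row.

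*Bmp2*, the closest relative of *Bmp4* in the family, gave the clearest lower value in the E18.5 mutant among the members above 1 FPKM. Its levels were 5.89 FPKM in E16.5 wild type, 4.90 in E16.5 *Tbx18*Gfp/Gfp, 7.54 in E18.5 wild type and 4.87 in E18.5 *Tbx18*Gfp/Gfp. Thus the E18.5 wild type was the high library and both mutants were nearly equal and below both wild types. The log2 ratio was -0.27 (-0.39 to -0.14) at E16.5 and -0.63 (-0.78 to -0.49) at E18.5. The E18.5 value was -0.92 relative to the median gene and -1.03 against the trend, and stayed below 0 under all 9 planned settings, the main one included, between -1.06 and -0.54. Set against the E16.5 wild type in place of the E18.5 wild type, the E18.5 mutant was at -0.28. *Bmp2* lies on chromosome 2 from 133378935 to 133388621.

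**Figure D1:**
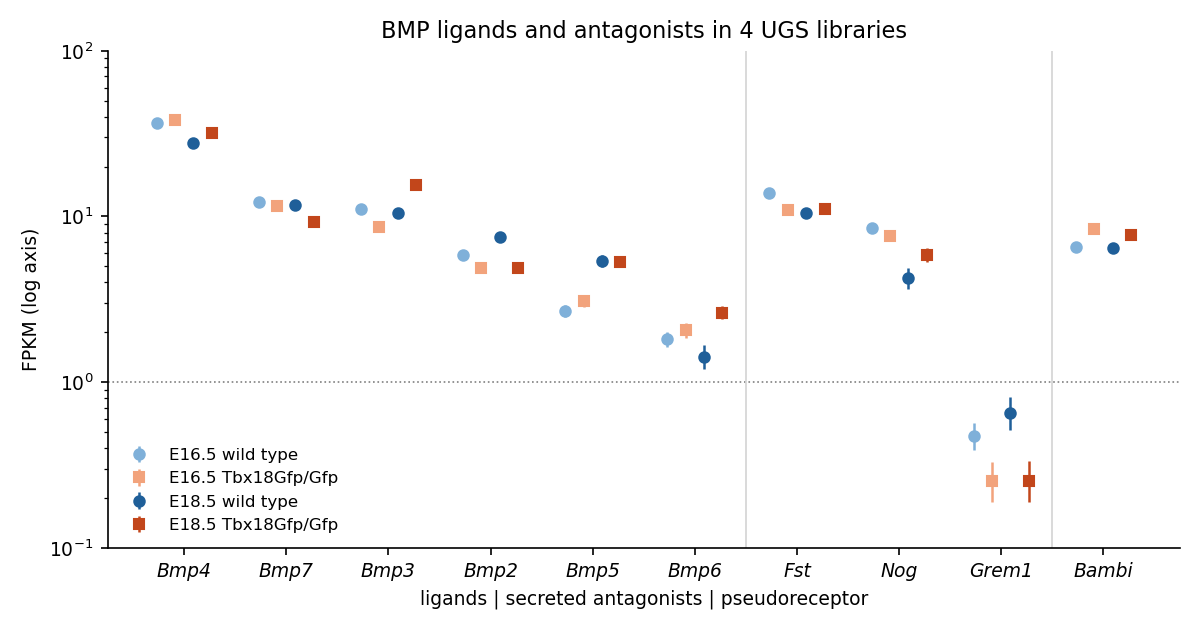
Levels of the 10 BMP genes in the 4 libraries, in FPKM on a log axis, with 1 point per library and bars for the 95% counting interval. *Bmp4* is highest in all 4 libraries at 27.7 to 38.5 FPKM, and *Grem1* is lowest in all 4 and stays under 1 FPKM.

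*Bmp7*, a ligand of the subgroup that also holds *Bmp5* and *Bmp6*, measured 12.1 FPKM in E16.5 wild type, 11.5 in E16.5 *Tbx18*Gfp/Gfp, 11.8 in E18.5 wild type and 9.21 in E18.5 *Tbx18*Gfp/Gfp. The first 3 libraries lay close together and the E18.5 mutant was the low one. The log2 ratio was -0.08 (-0.16 to 0.01) at E16.5, an interval that holds 0, and -0.35 (-0.46 to -0.25) at E18.5. The E18.5 value was -0.64 relative to the median gene and, at a GC content of 55.3%, -0.88 against the trend. *Bmp7* lies on chromosome 2 from 172695187 to 172765794.

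*Bmp3*, a divergent member of the family known to oppose signalling by other BMPs, went the other way between the stages. It measured 11.1 FPKM in E16.5 wild type, 8.69 in E16.5 *Tbx18*Gfp/Gfp, 10.5 in E18.5 wild type and 15.5 in E18.5 *Tbx18*Gfp/Gfp. The lowest and the highest value were thus both in mutants. The log2 ratio was -0.35 (-0.42 to -0.29) at E16.5 and 0.55 (0.48 to 0.63) at E18.5, under 1.5-fold in both as deposited. The E18.5 value was 0.26 relative to the median gene and 0.63 against the trend. The signs were the same under all 9 planned settings at each stage, from -0.46 to -0.32 at E16.5 and from 0.13 to 0.63 at E18.5. Smooth muscle marker genes, 9 of 9 at 1 FPKM or more in every library, were lower in the mutant at E16.5 and higher at E18.5, each of the 9 genes included. They summed to 1176 FPKM in E16.5 wild type, 624 in E16.5 *Tbx18*Gfp/Gfp, 1357 in E18.5 wild type and 3684 in E18.5 *Tbx18*Gfp/Gfp. Skeletal muscle markers summed to 896, 374.5, 460.7 and 834 FPKM. Of these 10 genes, all 10 were lower in the mutant at E16.5, but at E18.5 5 were higher and 5 lower, and *Acta1*, at 110 FPKM in wild type and 455 in the mutant, made up most of the difference between the sums. The part of either tissue in the *Bmp3* values was not tested. *Bmp3* lies on chromosome 5 from 99283458 to 99309979.

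*Bmp5* and *Bmp6* were the lowest ligands at E16.5. *Bmp5* measured 2.70 FPKM in E16.5 wild type, 3.09 in E16.5 *Tbx18*Gfp/Gfp, 5.42 in E18.5 wild type and 5.28 in E18.5 *Tbx18*Gfp/Gfp, so that the stages lay apart and the genotypes close together. The log2 ratio of mutant to wild type was 0.20 (0.03 to 0.36) at E16.5 and -0.04 (-0.19 to 0.11) at E18.5, where the interval holds 0. Relative to the median gene the E18.5 ratio was -0.33 (-0.48 to -0.18), and against the trend it was -0.04. *Bmp6* measured 1.82 FPKM in E16.5 wild type, 2.05 in E16.5 *Tbx18*Gfp/Gfp, 1.43 in E18.5 wild type and 2.62 in E18.5 *Tbx18*Gfp/Gfp. Both mutants were above both wild types, with a log2 ratio of 0.18 (-0.03 to 0.38) at E16.5 and 0.88 (0.60 to 1.16) at E18.5. The E18.5 wild type value rests on an estimated 140 reads, and *Bmp6* has the highest GC content of the 10 transcripts, 57.8%, so the ratio was only 0.22 against the trend. *Bmp5* lies on chromosome 9 from 75623172 to 75746824 and *Bmp6* on chromosome 13 from 38437585 to 38591597.

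*Fst* encodes follistatin, which binds activins and some BMPs, and was the highest antagonist in every library. It measured 13.8 FPKM in E16.5 wild type, 11.0 in E16.5 *Tbx18*Gfp/Gfp, 10.5 in E18.5 wild type and 11.1 in E18.5 *Tbx18*Gfp/Gfp. The E16.5 wild type was the high library and the other 3 lay together, so the log2 ratio was -0.33 (-0.42 to -0.24) at E16.5 and 0.08 (-0.05 to 0.20), or -0.21 relative to the median gene, at E18.5. *Nog* encodes noggin, which binds BMP2, BMP4 and BMP7 and blocks their receptor contacts. It measured 8.54 FPKM in E16.5 wild type, 7.67 in E16.5 *Tbx18*Gfp/Gfp, 4.23 in E18.5 wild type and 5.86 in E18.5 *Tbx18*Gfp/Gfp. Both E18.5 libraries were below both E16.5 libraries. The log2 ratio of *Nog* was -0.15 (-0.31 to -0.00) at E16.5, and 0.47 (0.22 to 0.73) as deposited but -0.27 against the trend at E18.5, so its E18.5 direction depended on how the libraries were scaled. *Fst* lies on chromosome 13 from 115242470 to 115248938 and *Nog* on chromosome 11 from 89161952 to 89163873.

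*Grem1* encodes gremlin, a secreted antagonist of BMP2 and BMP4, and was the lowest member in every library. It measured 0.472 FPKM in E16.5 wild type, 0.252 in E16.5 *Tbx18*Gfp/Gfp, 0.652 in E18.5 wild type and 0.254 in E18.5 *Tbx18*Gfp/Gfp, from an estimated 119, 55, 75 and 52 reads. Both mutants were below both wild types, and the counting intervals of the mutants (0.190 to 0.328 at E16.5 and 0.190 to 0.333 at E18.5) did not reach those of the wild types (0.391 to 0.565 and 0.513 to 0.818). The log2 ratio was -0.91 (-1.39 to -0.43) at E16.5 and -1.36 (-1.90 to -0.83) at E18.5, the lowest of any member at either stage, and was -1.42 against the trend at E18.5. Being under 1 FPKM throughout, *Grem1* was outside the filter and is not among the 9 members counted at that filter. With a pseudocount of 1 FPKM the ratios were -0.23 and -0.40. *Grem1* lies on chromosome 2 from 113588832 to 113598805.

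*Bambi* encodes a receptor-like protein without a kinase domain that dampens BMP signalling and is itself induced by BMPs. It measured 6.55 FPKM in E16.5 wild type, 8.38 in E16.5 *Tbx18*Gfp/Gfp, 6.43 in E18.5 wild type and 7.76 in E18.5 *Tbx18*Gfp/Gfp. Both mutants were above both wild types, with a log2 ratio of 0.36 (0.27 to 0.44) at E16.5, the highest of the 9 members tested at that stage. At E18.5 it was 0.27 (0.16 to 0.38) as deposited, 0.29 against the trend and -0.02 relative to the median gene. *Bambi* lies on chromosome 18 from 3507955 to 3516402.

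Ordered by level, the E16.5 wild type library ran *Bmp4*, *Fst*, *Bmp7*, *Bmp3*, *Nog*, *Bambi*, *Bmp2*, *Bmp5*, *Bmp6*, *Grem1*, and no neighbours had overlapping counting intervals. In E16.5 *Tbx18*Gfp/Gfp the intervals of *Bmp7* and *Fst*, of *Bmp3* and *Bambi*, and of *Bambi* and *Nog* overlapped. In E18.5 wild type, *Bmp3* and *Fst* overlapped at 10.5 FPKM each. In E18.5 *Tbx18*Gfp/Gfp, where *Bmp3* had become the second gene after *Bmp4*, the pairs *Nog* and *Bmp5*, and *Bmp5* and *Bmp2*, overlapped.

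Counted as a group at E16.5, none of the 9 members that passed a filter of 1 FPKM in the higher library was past 1.5-fold, where 4.15% of 14761 genes were. Their log2 ratios ran from -0.35 to 0.36, with 4 above 0 and 5 below and a median of -0.08, against 0.01 for all genes. At E18.5, 2 of 9 members were past 1.5-fold as deposited, *Bmp6* upward and *Bmp2* downward, where 40.8% of 14733 genes were (33.2% higher and 7.6% lower). None was past 2-fold, where 18% of genes were. The member median was 0.21, with 6 above 0 and 3 below. Relative to the median gene, *Bmp6* was the only member past 1.5-fold upward and *Bmp2* and *Bmp7* the only ones downward, where 35.8% of genes were past 1.5-fold (19.7% higher and 16% lower), and 3 of 9 members were above 0. The share of the members past the threshold was therefore no higher than that of all genes at either stage.

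**Figure D2:**
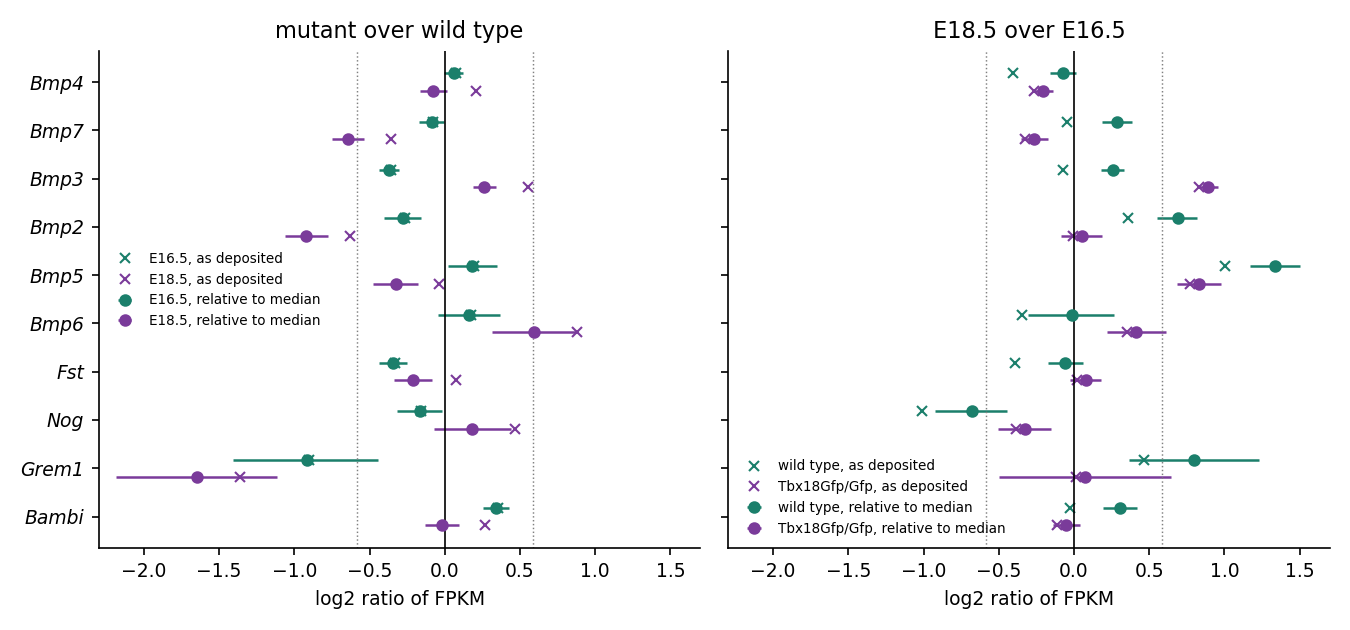
Log2 ratio of FPKM of each BMP gene, mutant over wild type at each stage (left) and E18.5 over E16.5 in each genotype (right), with crosses for the ratio as deposited, dots and bars for the ratio relative to the median gene and its 95% counting interval, and dotted lines at 1.5-fold. As deposited, *Grem1* alone lies past the lines at E16.5, at -0.91, and at E18.5 *Bmp6* lies above at 0.88 and *Bmp2* and *Grem1* below at -0.63 and -1.36, while relative to the median *Bmp7* also lies below at -0.64.

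**Figure D3:**
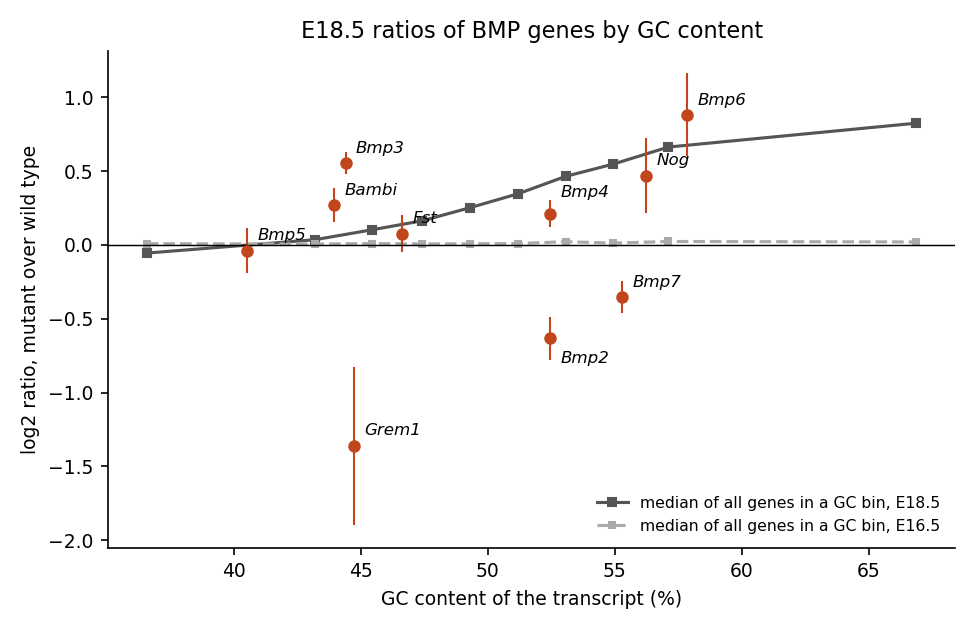
Log2 ratio at E18.5 of each BMP gene (points, with 95% counting interval) against the GC content of its transcript in percent, with the median of all genes in 10 bins of GC content at E18.5 (solid line) and E16.5 (dashed line). The E18.5 median runs from -0.06 in the lowest bin to 0.82 in the highest, *Bmp2* and *Bmp7* lie below it and *Bmp3* above it, while *Bmp5* and *Fst* lie near it.

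The stages were compared within each genotype. These comparisons share libraries with the genotype comparisons, so the values are given side by side and nothing is drawn from their likeness. In the wild type, 2 of 9 members were past 1.5-fold from E16.5 to E18.5, where 42.7% of 14807 genes were (6.8% higher and 35.9% lower). These were *Bmp5*, higher at E18.5 by 1.01 log2 units, and *Nog*, lower by 1.01, and both were also past 2-fold, where 2.7% of genes were higher and 16.8% lower. Relative to the median gene, which was 0.33 lower at E18.5, *Bmp5* stood at 1.34, *Bmp2* at 0.69 and *Nog* at -0.68, which made 3 of 9 members past 1.5-fold, where 15.9% of genes were higher and 19.8% lower. Across genes the wild type stage ratio fell with GC content (Spearman -0.50), and against the GC and length trend *Nog* was at -0.21, no longer past 1.5-fold, while *Bmp5* was at 1.00 and *Bmp2* at 0.82. In the mutant, whose 2 libraries had similar depth and differed by 0.06 in the median gene, 2 of 9 members were past 1.5-fold and 4.68% of 14713 genes (3% higher and 1.68% lower). *Bmp3* was higher at E18.5 by 0.83 and *Bmp5* by 0.77, and no member was lower past 1.5-fold. The other 8 members, *Grem1* included, lay between -0.39 for *Nog* and 0.35 for *Bmp6*. *Bmp5* was the one gene past 1.5-fold with age in both genotypes. *Bmp3* was at 0.83 in the mutant and -0.07 in the wild type, and *Bmp2* at -0.01 in the mutant and 0.36 in the wild type; with 1 library in each cell of the design these differences between genotypes could not be tested.

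Values set against each other inside a library do not depend on its scaling, though they still depend on its GC and length trend. *Bmp4* made up 52.1% of the FPKM of the 6 ligands in E16.5 wild type, 56.0% in E16.5 *Tbx18*Gfp/Gfp, 43.0% in E18.5 wild type and 46.1% in E18.5 *Tbx18*Gfp/Gfp. *Bmp2* made up 8.39%, 7.13%, 11.7% and 7.01% in the same order, *Bmp7* 17.3%, 16.8%, 18.3% and 13.3%, and *Bmp3* 15.8%, 12.6%, 16.4% and 22.3%. In the E18.5 mutant *Bmp3* thus took the largest share it had in any library, while *Bmp2* and *Bmp7* took their smallest. *Bmp5* made up 3.84%, 4.49%, 8.41% and 7.60% and *Bmp6* 2.59%, 2.99%, 2.22% and 3.78%. Of 8 pairs computed, the following 2 were chosen after their values were seen. The ratio of *Bmp3* to *Bmp7* was 0.915 (0.873 to 0.960) in E16.5 wild type, 0.754 (0.714 to 0.797) in E16.5 *Tbx18*Gfp/Gfp, 0.896 (0.833 to 0.964) in E18.5 wild type and 1.68 (1.59 to 1.78) in E18.5 *Tbx18*Gfp/Gfp. The ratio of *Bmp2* to *Bmp4* was 0.161 (0.151 to 0.172), 0.127 (0.118 to 0.137), 0.273 (0.249 to 0.298) and 0.152 (0.141 to 0.164). It was lower in the mutant at each stage and highest in E18.5 wild type. Their transcripts have the same GC content (52.5%) but differ in length, at 3555 bases for *Bmp2* and 2064 for *Bmp4*.

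**Figure D4:**
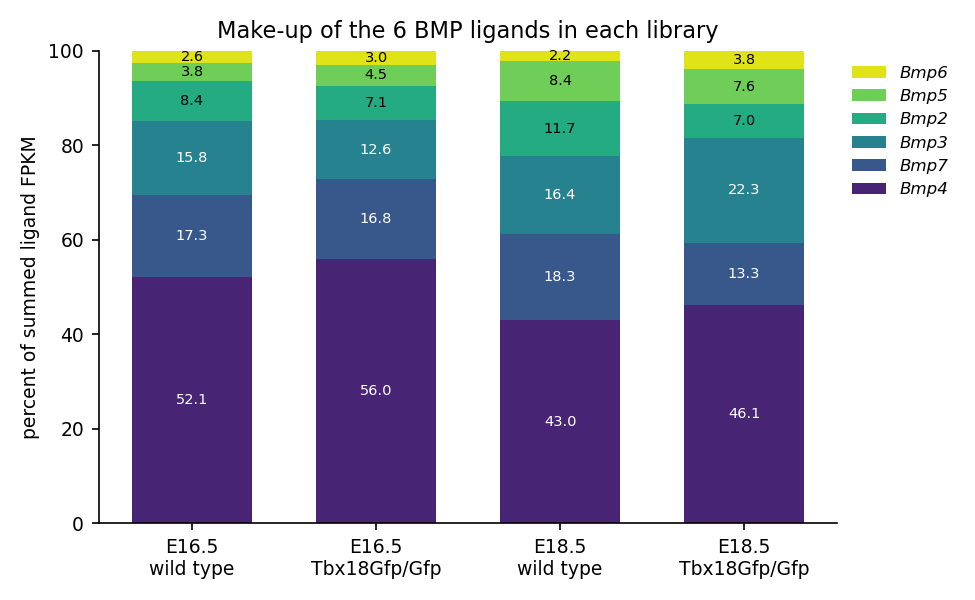
Share of each of the 6 ligands in their summed FPKM, in percent, in each of the 4 libraries. *Bmp4* is the largest share everywhere at 43.0% to 56.0%, and *Bmp3* reaches 22.3% in E18.5 *Tbx18*Gfp/Gfp against 12.6% to 16.4% in the other libraries.

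The 6 ligands summed to 70.2, 68.7, 64.4 and 69.5 FPKM, and the 3 secreted antagonists to 22.8, 18.9, 15.4 and 17.2 FPKM. The ratio of antagonist to ligand was 0.324 (0.312 to 0.338) in E16.5 wild type, 0.275 (0.262 to 0.288) in E16.5 *Tbx18*Gfp/Gfp, 0.239 (0.223 to 0.256) in E18.5 wild type and 0.248 (0.236 to 0.260) in E18.5 *Tbx18*Gfp/Gfp. The E16.5 mutant was below its wild type by more than counting error, and the E18.5 libraries overlapped. Sums of FPKM are not concentrations of protein, and *Fst* also binds activins. *Bmp3*, which is known to oppose other BMPs, was counted as a ligand. Other secreted inhibitors were left out of the antagonist sum, among them *Nbl1* and *Twsg1*, at 71.0 and 54.0 FPKM in E16.5 wild type. The ratio therefore describes these members and not the whole pathway.

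For 7 of the members, the gene most like each over the 4 libraries was taken among the other members and the pathway genes, by the root mean square difference of log2 FPKM centred on each gene's mean (64 genes compared per member). *Bmp2* was nearest to *Gdf11* (0.06) and *Bmp4* to *Ctdspl* (0.03). *Bmp6* was nearest to *Acvrl1* (0.06), *Bmp7* to *Gata3* (0.11), *Nog* to *Hey1* (0.12), *Fst* to *Acvr2a* (0.06) and *Bambi* to *Id2* (0.07). Over 4 libraries, of which one stands apart, such likeness is a description of these values.

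The rest of the pathway was read from 77 genes in 6 lists, of which 62 passed the filter of 1 FPKM for E16.5 and 61 for E18.5. In the earlier pair, 1 of 62 was past 1.5-fold, where 4.15% of all genes were. This was *Hfe2*, the co-receptor hemojuvelin, lower in the mutant at 3.00 against 7.54 FPKM. *Hfe2* is a gene of skeletal muscle, whose markers were lower in the same library, but the part of muscle in its values was not tested. The median of the 62 was 0.02. Among those with the largest E16.5 ratios in their lists, *Gdf7*, *Htra1*, *Gata2*, *Atoh8*, *Inhba* and *Eng* lay between 0.31 and 0.37, *Pcsk6*, *Smad6*, *Chrd*, *Smad7* and *Pcsk5* between 0.07 and 0.24, and *Chrdl1*, *Rgma*, *Rgmb*, *Sostdc1*, *Tob1*, *Gdf11* and *Lemd3* between -0.31 and -0.09. At E18.5, 26 of 61 were past 1.5-fold (42.6%), 21 higher and 5 lower, and relative to the median gene 13 were higher and 10 lower. Against 40.8% and 35.8% of all genes, those shares are near the background.

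Among the receptors, *Bmpr1a*, a type 1 receptor, measured 42.6, 42.5, 54.9 and 45.7 FPKM (wild type and mutant at E16.5, then wild type and mutant at E18.5) and *Bmpr2*, the type 2 receptor, 15.1, 14.1, 24.3 and 13.3. Both were nearly equal at E16.5 and highest in E18.5 wild type, with E18.5 log2 ratios of -0.26 and -0.87. Relative to the median gene these ratios were -0.55 and -1.16. The type 1 receptors *Bmpr1b* and *Acvr1* gave 0.18 and 0.01 at E18.5, and *Acvrl1*, which is mainly endothelial, 0.85, or 0.56 relative to the median gene. The type 2 receptors *Acvr2a* and *Acvr2b* gave 0.08 and 1.43, the latter from 0.921 FPKM in the wild type. In all, 3 of 11 receptors and co-receptors were higher and 1 was lower past 1.5-fold at E18.5 as deposited, where 33.2% of all genes were higher and 7.6% lower. Relative to the median gene, 1 was higher and 2 were lower, where 19.7% and 16% of all genes were. Among the SMADs, *Smad1*, *Smad5* and *Smad4* lay within 1.5-fold at both stages, at -0.05, 0.37 and -0.03 at E18.5. *Smad9* was lower in the E18.5 mutant at 4.01 against 6.06 FPKM. *Smad6*, an inhibitory SMAD induced by BMPs, was 9.03, 10.4, 4.96 and 9.76 FPKM, low in E18.5 wild type and alike in the other 3. *Ctdsp1*, a SMAD phosphatase, was higher at 1.05 and *Ski*, a SMAD corepressor, was at -0.45, and the co-receptor gene *Rgma* at -0.37. Relative to the median gene, *Ctdsp1*, *Ski* and *Rgma* were at 0.76, -0.74 and -0.66. Of the 16 genes of the SMAD list, 5 were higher and 1 lower past 1.5-fold as deposited, and 2 were higher and 2 lower relative to the median gene, beside the same shares of all genes.

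The target list holds genes known to be induced by BMPs. *Id1* measured 89.1, 99, 52.8 and 90.2 FPKM, *Id2* 112, 142, 122 and 143, *Id3* 149, 198, 40.5 and 160, and *Id4* 20.7, 25.5, 22.2 and 26.2. Each was higher in the mutant at both stages as deposited, by 0.15, 0.35, 0.41 and 0.30 log2 units at E16.5, all under 1.5-fold. At E18.5 *Id3* was 1.98 higher and *Id1* 0.77 higher, while *Id2* and *Id4* were 0.24 higher. Relative to the median gene *Id3* was at 1.69, *Id1* was under 1.5-fold, and *Id2* and *Id4* were at -0.05 each. *Id1* and *Id3* were low in E18.5 wild type alone. Of 15 target genes tested at E16.5, 13 were above 0, with a median of 0.20, where 54.2% of all genes were above 0. At E18.5, 4 of 14 were higher past 1.5-fold and 3 lower as deposited, where 33.2% of all genes were higher and 7.6% lower. Relative to the median gene, 3 were higher and 4 lower, where 19.7% and 16% of all genes were. *Gata3*, at -0.59, was one of the lower genes in both counts, and *Msx2*, at -0.58, only in the relative one.

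Among the lists, other secreted inhibitors had the highest median ratio at E18.5. Of 13 tested, 7 were higher in the mutant past 1.5-fold and none was lower as deposited, where 33.2% of all genes were higher and 7.6% lower. Relative to the median gene, 6 were higher and 1 was lower (*Chrdl1*, at -0.74), where 19.7% and 16% of all genes were. Their median was 0.84, or 0.55 relative to the median gene. Set against E16.5 wild type in place of E18.5 wild type, the E18.5 mutant had a list median of 0.06. The median of all genes in that pair, where stage differs too, was -0.04. At E16.5 none was past 1.5-fold, where 4.15% of all genes were, and the median was -0.04. *Nbl1*, a relative of gremlin, measured 71.0, 69.3, 17.5 and 58.2 FPKM, and *Chrd*, which encodes chordin, 9.30, 10.6, 3.76 and 9.46. *Htra1*, a secreted protease that binds TGF-β family ligands, was at 1.21 at E18.5, or 0.92 relative to the median gene. For *Nbl1* and *Chrd*, E18.5 wild type was low and the other 3 libraries lay together. *Chrdl1*, a chordin-like inhibitor, was at -0.45. Among other ligands, *Gdf10* was higher than any BMP member, at 78.2, 77.5, 65.3 and 66.7 FPKM, and alike in mutant and wild type. *Gdf7* was 11.7, 15.1, 3.60 and 9.37 FPKM, *Inhba* was at 0.68 and *Gdf11* at -0.52 at E18.5. Relative to the median gene, *Inhba* was at 0.40 and *Gdf11* at -0.81. Of 5 proteases that process BMP precursors or their antagonists, *Furin* alone was past 1.5-fold at E18.5, at 0.95, where 40.8% of all genes were. *Bmp1*, *Pcsk6* and *Pcsk5* were at 0.54, 0.42 and -0.26. Relative to the median gene, *Furin*, *Bmp1*, *Pcsk6* and *Pcsk5* were at 0.66, 0.25, 0.13 and -0.55.

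**Figure D5:**
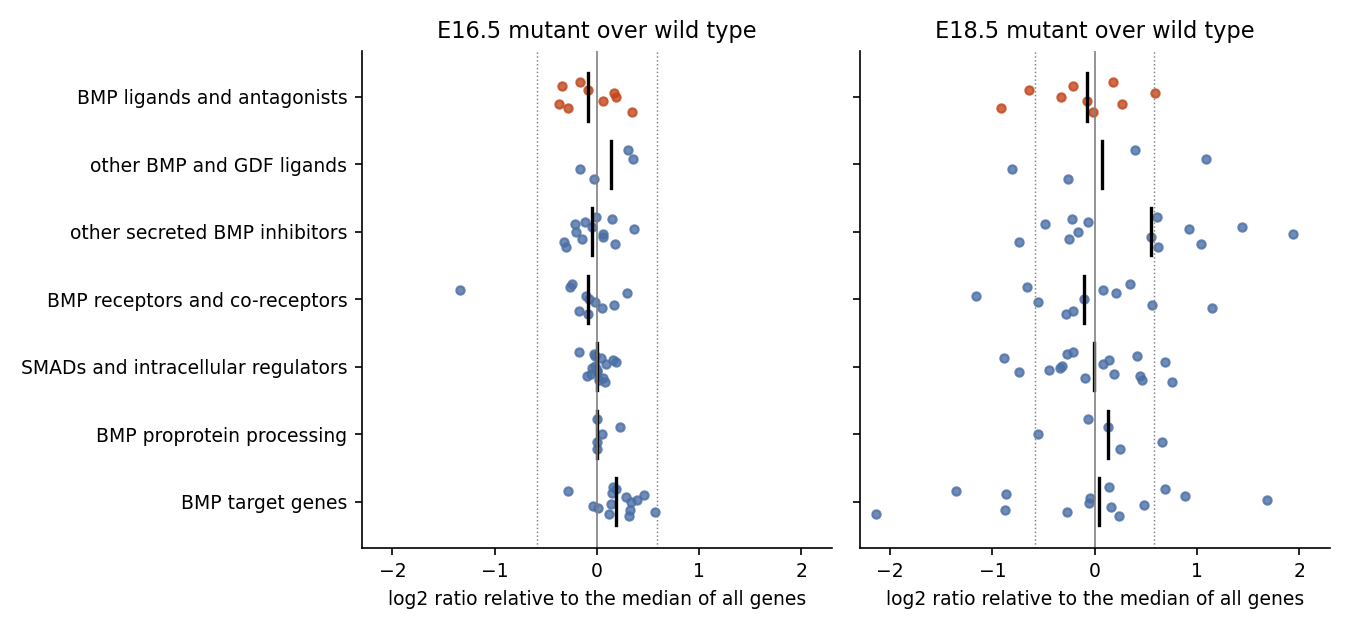
Log2 ratio of FPKM, mutant over wild type, relative to the median of all genes, for the BMP members and the other pathway genes by list at E16.5 and E18.5, with 1 point per gene tested, a thick bar for the median of each list and dotted lines at 1.5-fold. At E16.5 all points but *Hfe2*, at -1.34, lie inside the dotted lines, the highest at 0.57, and at E18.5 they spread from -2.14 to 1.94.

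Markers of the other cell types in the UGS were read beside these results. Endothelial markers (6 of 6 at 1 FPKM or more) summed to 102 to 115 FPKM and macrophage markers (6 of 6 in the file) to 41.1 to 59.2. Neuron and glia markers (7 of 7) summed to 120 to 201 FPKM, and mesonephric duct and seminal vesicle markers (3 or 4 of 5) to 51.2 to 63.9, with the lowest sum in the E18.5 mutant; *Gata3* is in this list and among the BMP targets. Epithelial markers summed to 349.8 to 428.5 FPKM and mesenchymal markers to 1335 to 1580. Cartilage and bone markers summed to 4.84 to 9.30 FPKM, with 2 or 3 of 8 at 1 FPKM. Apart from the muscle lists, no list differed between libraries by more than 2-fold. The part of any of these cells in the member values was not tested.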

How the data were processed

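RNA-Seq was carried out on 4 libraries, each of UGS RNA pooled from 3 male embryos. The authors made stranded mRNA libraries, sequenced single ends, aligned reads with TopHat2 at default options and estimated expression with Cufflinks, and deposited FPKM per gene with no further scaling stated. The submitters' processing notes name CASAVA 1.8.2, Trimmomatic 0.30, TopHat2 2.1.0 and Cufflinks 2.2.1. The genome build and annotation are not given in the sources used here, and counting by strand is not stated.

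FPKM ratios were formed where one of the libraries compared reached 1 FPKM, with thresholds of 1.5-fold and 2-fold. Depth came from 15 to 27 olfactory receptor genes of a single exon in each library, listed at the value of a single read. Reads per gene followed from depth and GENCODE M21 transcript length, with 95% exact Poisson intervals for levels and binomial intervals for ratios. The 95% intervals of the antagonist to ligand ratio used a normal approximation on the log scale instead. Lengths and GC content were matched by symbol for 23079 rows (93.7% of rows at 1 FPKM or more). A lowess trend (span 0.3) on length and GC content was subtracted as an alternative. The steps were tested on simulated data. Computation used Python 3.11.15 with scipy 1.17.1, numpy 2.4.6, statsmodels 0.14.6, pandas 2.3.3 and, for plots, matplotlib 3.10.9.

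The members and lists were chosen with earlier results of these data known. All members are named; from each pathway list up to 4 genes with the largest ratio relative to the median gene at each stage, provided the higher library had 5 FPKM or more and the lower library 1 FPKM or more, plus the receptors, core SMADs and *Id1* to *Id4*. The genes nearest in pattern to *Bmp3* and *Bmp5* are not reported here, and *Grem1* was under the filter for that measure.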

Additional observations from a re-analysis of the deposited data

How the results depend on the processing

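No paired analysis was possible because each genotype and stage had 1 library and no replicate number, and no replicate could be left out. The settings planned were equal library sums, centring on the median gene, upper quartile scaling, the GC and length trend, pseudocounts of 0.1 and 1 FPKM, no filter, and at least 5 FPKM; replacing E18.5 wild type by E16.5 wild type was added after seeing the data.

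At E16.5, equal sums moved the member median from -0.08 to -0.18, and without a filter 1 of 10 members (*Grem1*) was past 1.5-fold instead of 0 of 9, and 6 pathway genes instead of 1. At E18.5 the member median of 0.21 became -0.21 with equal sums, -0.0780 when centred, -0.0904 with upper quartile scaling, -0.12 with the trend subtracted and -0.19 against E16.5 wild type. The count of 2 members past 1.5-fold became 0 with a pseudocount of 1 FPKM, 1 of 8 at 5 FPKM or more and 1 against E16.5 wild type; it was 3 when centred, 3 with the trend subtracted (*Bmp3* at 0.63 past the threshold and *Bmp6* at 0.22 under it) and 3 of 10 without a filter. Against E16.5 wild type the pathway count of 26 at E18.5 became 5, while the median of all genes went from 0.29 to -0.04. The share of all genes past 1.5-fold is not given for that pair, the trend, the pseudocounts or the other filters. The counts under those settings therefore have no background beside them. In the wild type across stages the member median of -0.07 became 0.22, 0.26, 0.27 and 0.15 under the 4 scalings in that order. Single members changed sign for 3 of 10 under each of these scalings at E18.5, and *Bmp2*, *Bmp3*, *Bmp5*, *Bmp6*, *Bmp7* and *Grem1* did not under any planned setting. The mutant stage count was 2 under every planned setting, and its median of -0.0096 lay between -0.11 and 0.0641. Left without *Bmp4*, the antagonist to ligand ratio was 0.677, 0.624, 0.419 and 0.459 in the 4 libraries, and left without *Fst* it was 0.128, 0.115, 0.0759 and 0.0881. Of these changes, those under the filters follow from which genes were tested; the cause of the others was not tested. Within E18.5 wild type, the shallowest library, counting error is largest for *Grem1*, *Bmp6* and *Nog*. *Grem1* rests on fewer reads still in the mutants, an estimated 55 at E16.5 and 52 at E18.5. Variation between embryos could not be measured.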

Other observations

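Outside the rule for named genes, and chosen after their values were seen, *Fstl3*, a follistatin-like inhibitor, had the highest pathway ratio at E18.5, 2.23 on the log2 scale from 0.515 FPKM in wild type to 2.41 in the mutant, and *Dlx5*, a homeobox target of BMPs, had the lowest, -1.85 from 4.78 to 1.32 FPKM. At E16.5 they were at 0.07 and 0.13. Set against E16.5 wild type, the E18.5 mutant was at 0.97 for *Bmp5*, 0.53 for *Bmp6*, 0.48 for *Bmp3*, 0.24 for *Bambi*, -0.19 for *Bmp4*, -0.28 for *Bmp2*, -0.31 for *Fst*, -0.40 for *Bmp7*, -0.54 for *Nog* and -0.89 for *Grem1*. Both genotype and stage differ in that pair.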
